A study of Mus musculus with 9 samples.

Results

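The Ly6 genes examined here were Ly6d, Ly6e and Ly6k, which had 5 of the 45037 probe sets tested. The rule asked for every probe set whose platform symbol is exactly Ly6a, Ly6e, Ly6d, Ly6c1, Ly6c2 or Ly6k. Of these 6 genes, 3 had probe sets of their own: Ly6d had 1, Ly6e had 2 and Ly6k had 2. Ly6a, the gene of Sca-1, had 0 probe sets under its own symbol in the annotation used and was not analysed here. Ly6c1 and Ly6c2 had 0 probe sets each of their own, and the 1 probe set filed under both symbols is described below without assigning it to either gene. No value below is therefore a level of Sca-1.

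Affymetrix arrays measured RNA of frozen spleen tissue, 1 array per sample, in 5 splenic lymphomas of Sca1-MALT1 transgenic mice and in 4 spleens of healthy wild-type mice. Each value is a log2 level after RMA, which removes background, brings the arrays to a common distribution and gives 1 value per probe set, that is, per group of probes for a transcript. The labels give no strain, age or sex, and do not state whether each sample is a separate animal, so that p-values cover only the spread among these 9 samples, whose number limits the precision. The transgene carries MALT1, a protease and scaffold of antigen receptor signalling, under regulatory sequence of Sca-1, which is active in blood stem and progenitor cells and in some other cells. Wild-type mice carry no transgene.

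Ly6 proteins are small cell-surface proteins held in the outer membrane by a glycosylphosphatidylinositol (GPI) anchor. Many of their genes lie side by side on mouse chromosome 15, and several are raised by interferon. Blood-cell researchers use them as surface markers: Sca-1 for stem cells, Ly6C for monocytes, subsets of T cells, plasma cells and endothelium, and Ly6D for lymphoid progenitors committed to the B-cell lineage. Ly6E, once called Sca-2 or thymic shared antigen, is found on immature thymocytes and many other cells and limits the entry of coronaviruses. Ly6K is best known from mouse testis, where it is needed for sperm to pass into the oviduct.

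The probe set filed under both Ly6c1 and Ly6c2 is not assigned to either of these neighbouring genes. Their promoters are shown here. Promoter sequence does not tell whether the probes separate the transcripts, which were not compared. The RefSeq promoter table (GRCm38.p6) held windows for Ly6c1 and Ly6c2 and none for Ly6d, Ly6e, Ly6k or Ly6a. The 250 bases before the first listed start of each gene are shown, both on the minus strand. The capitals mark the longest run that both windows share.
Ly6c1, chr15:75048838-75049087: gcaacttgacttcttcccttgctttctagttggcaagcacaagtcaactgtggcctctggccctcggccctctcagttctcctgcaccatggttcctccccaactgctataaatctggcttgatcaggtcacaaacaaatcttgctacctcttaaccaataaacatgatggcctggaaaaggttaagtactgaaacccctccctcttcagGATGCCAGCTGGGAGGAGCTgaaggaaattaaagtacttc
Ly6c2, chr15:75111972-75112221: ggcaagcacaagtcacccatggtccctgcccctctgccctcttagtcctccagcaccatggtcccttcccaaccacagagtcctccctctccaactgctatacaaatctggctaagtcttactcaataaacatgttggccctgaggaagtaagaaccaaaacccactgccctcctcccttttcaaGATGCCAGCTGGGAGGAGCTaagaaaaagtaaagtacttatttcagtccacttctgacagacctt

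The shared run is 20 bases long and ends 21 bases before the start in Ly6c1 and 46 bases before it in Ly6c2. In a global alignment 164 of 216 aligned base pairs (75.9%) were identical, with 68 bases in gaps, ends included. Of all 32851 promoter windows in the table, 5 (0.0152%) held this run on either strand, and they belonged to Ly6c1, Ly6c2 and their neighbour Ly6a2.

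No difference between lymphoma and wild-type spleen passed the test for Ly6d, Ly6e or Ly6k. Limma, a linear model fitted to every probe set, called 0 of the 5 Ly6 probe sets at a Benjamini-Hochberg adjusted p under 0.05, and 0 at an unadjusted p under 0.05. It called 219 of all 45037 probe sets (0.486%; 0.251% higher and 0.235% lower in lymphoma), and 6267 (13.9%) had an unadjusted p under 0.05. The groups overlapped on all 5 Ly6 probe sets, whereas 6.47% of all probe sets had groups that did not overlap. The leading probe sets of Ly6d, Ly6e and Ly6k spread more widely among arrays of the same group than most probe sets did. On the leading probe set of each gene, that with the highest mean over the 9 arrays, the SD about the group means was 1.02 for Ly6d, 0.790 for Ly6e and 0.973 for Ly6k, against a median of 0.171 over all probe sets. These values lay at the 99.1, 98.2 and 98.9 percentiles of all probe sets, dim ones included. The other probe sets of Ly6e and Ly6k lay at 94.7 and 12.2. Such spread was not particular to Ly6 genes: among marker genes, S100a9 lay at 99.8 and Fcer2a at 99.1, although others such as Csf1r lay lower (41.7).

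**Figure D1:**
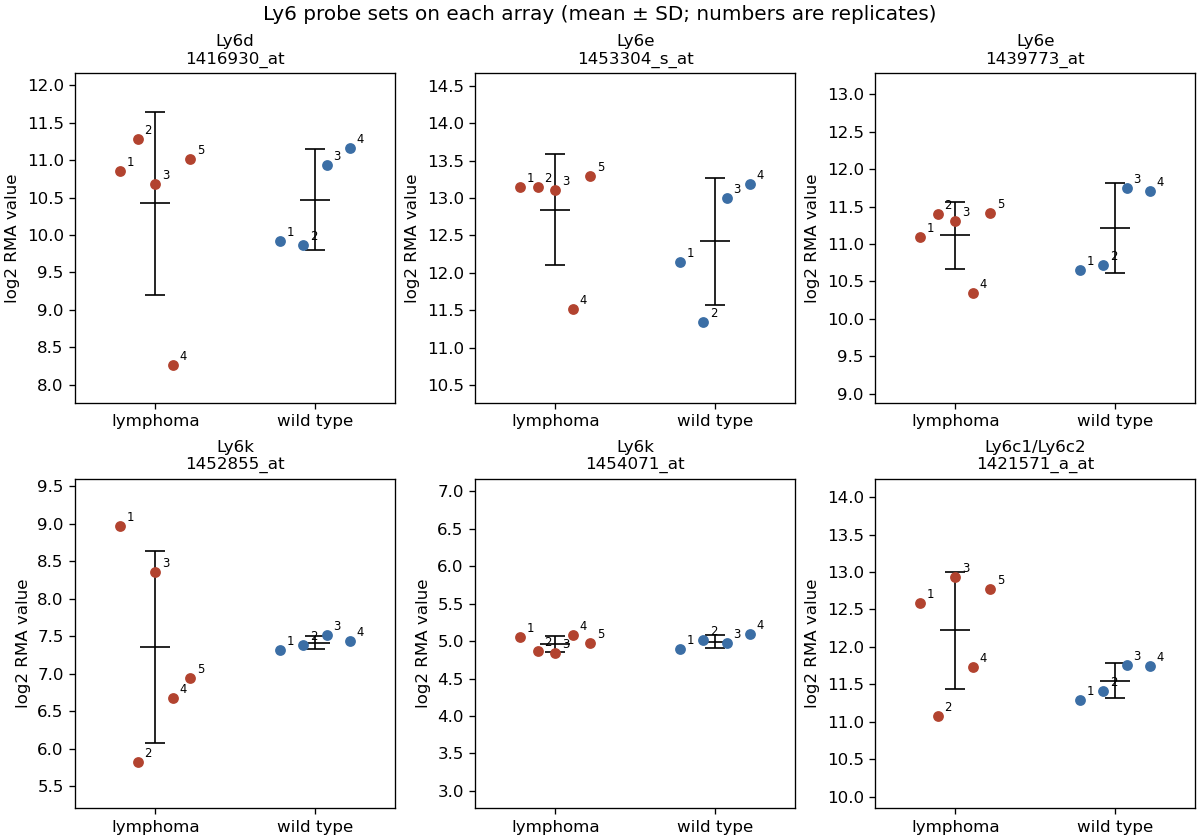
Log2 RMA level of the 5 Ly6 probe sets and of the probe set filed under both Ly6c1 and Ly6c2 (vertical axes, each spanning the same number of log2 units), in lymphoma (red, left) and wild-type spleen (blue, right). Points are single arrays labelled with their replicate number, and black bars are the mean ± SD. Lymphoma 4 is the lowest lymphoma for Ly6d (8.27) and for both Ly6e probe sets, whereas the leading Ly6k probe set is spread over lymphomas and tight in wild-type spleens.

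Ly6d, the lymphoid progenitor and B-lineage marker, had log2 levels of 10.86, 11.28, 10.69, 8.27 and 11.02 in lymphomas 1 to 5, against 9.92, 9.87, 10.94 and 11.16 in wild-type spleens 1 to 4. Lymphoma 4 lay below every other array, and wild-type spleens 1 and 2 lay below the other 2 wild-type spleens and the other 4 lymphomas. The means were 10.42 ± 1.22 in lymphoma (SD, n = 5) and 10.47 ± 0.67 in wild-type (SD, n = 4). Their difference was -0.048 (95% interval -1.36 to 1.27; limma adjusted p 0.983, exact permutation p 0.968, two-sided). The interval runs from a 0.389-fold to a 2.41-fold level in lymphoma, so changes within it remain compatible with these arrays. Without lymphoma 4 the difference was 0.49 (limma adjusted p 0.475), without lymphomas 1 and 2 it was -0.48 (0.761), and with the erythroid level as covariate -0.58 (0.722). In whole tissue, fewer cells of a type and less RNA per cell cannot be told apart.

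The leading probe set of Ly6e (1453304_s_at) showed the same arrays at the low end. It stood at 13.15, 13.15, 13.11, 11.52 and 13.29 in lymphomas 1 to 5, against 12.15, 11.34, 12.99 and 13.19 in wild-type spleens 1 to 4. Lymphomas 1, 2, 3 and 5 lay close together, between 13.11 and 13.29, and lymphoma 4 lay far below them, next to wild-type spleen 2. The means were 12.84 ± 0.74 in lymphoma and 12.42 ± 0.85 in wild-type (SD, n = 5 and n = 4), a difference of 0.43 (95% interval -0.59 to 1.44; limma adjusted p 0.728, exact permutation p 0.413, two-sided). Without lymphoma 4 the difference was 0.76, and without wild-type spleen 2 it was 0.066. With the erythroid or the Xist level as covariate it was 0.13 and 0.19.

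The other Ly6e probe set (1439773_at) read 11.10, 11.41, 11.31, 10.35 and 11.41 in lymphomas 1 to 5, against 10.65, 10.72, 11.75 and 11.71 in wild-type spleens 1 to 4. Again lymphoma 4 and wild-type spleens 1 and 2 were the lowest arrays. Here wild-type spleens 3 and 4 stood above every lymphoma, and the difference was -0.095 (95% interval -0.77 to 0.58; limma adjusted p 0.923), so that the differences of the 2 probe sets had opposite signs with neither called. Without lymphoma 4 it was 0.097.

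Ly6d and Ly6e varied together from array to array. Over the 9 arrays the Pearson correlation of their leading probe sets was 0.87 (Spearman 0.80). For deviations from the group means it was 0.91, and without the 2 arrays farthest from the median of Ly6d (lymphoma 4 and wild-type spleen 2) it was 0.91. The points share the arrays and their normalization, so these values are descriptions. The leading probe set of Ly6k did not share the pattern, with a correlation of 0.14 with Ly6d and 0.19 with Ly6e.

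The genes most like Ly6e were Apobec3, a DNA deaminase that restricts retroviruses, Spint1, an inhibitor of serine proteases, and Trim12a, of the tripartite motif family. Their Pearson correlations with Ly6e over the 9 arrays were 0.98, 0.96 and 0.95, the highest of 4220 other genes whose leading probe set had an SD of at least 0.3. Without the 2 arrays farthest from the median of Ly6e (wild-type spleen 2 and lymphoma 4) they were 0.91, 0.91 and 0.82. Spearman correlations were 0.68 for Apobec3, 0.87 for Spint1 and 0.60 for Trim12a.

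Trim12a had the widest range of these genes. It stood at 8.89, 9.41, 9.79, 4.71 and 9.73 in lymphomas 1 to 5, against 6.38, 4.46, 10.90 and 10.74 in wild-type spleens 1 to 4. The same 3 arrays, lymphoma 4 and wild-type spleens 1 and 2, were the lowest. In RefSeq (GRCm38.p6) Apobec3 lies on chromosome 15, as Ly6e does, Spint1 on chromosome 2 and Trim12a on chromosome 7.

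The genes most like Ly6d were Spata5l1, an ATPase gene on chromosome 2, Sned1, a secreted matrix protein gene on chromosome 1, and Kazald1, a gene on chromosome 19. Their Pearson correlations with Ly6d were 0.95, 0.93 and 0.93 over the 9 arrays. Without lymphoma 4 and wild-type spleen 2 they were 0.96 for Spata5l1, 0.72 for Sned1 and 0.61 for Kazald1. Spata5l1 stood at 6.85, 7.50, 6.96, 5.11 and 7.04 in lymphomas 1 to 5, against 5.73, 5.92, 7.38 and 7.36 in wild-type spleens 1 to 4, so that its 3 lowest arrays were those of Ly6d too. Sned1 and Kazald1 had narrower ranges, with lymphoma 4 lowest for both (7.04 and 7.67).

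**Figure D2:**
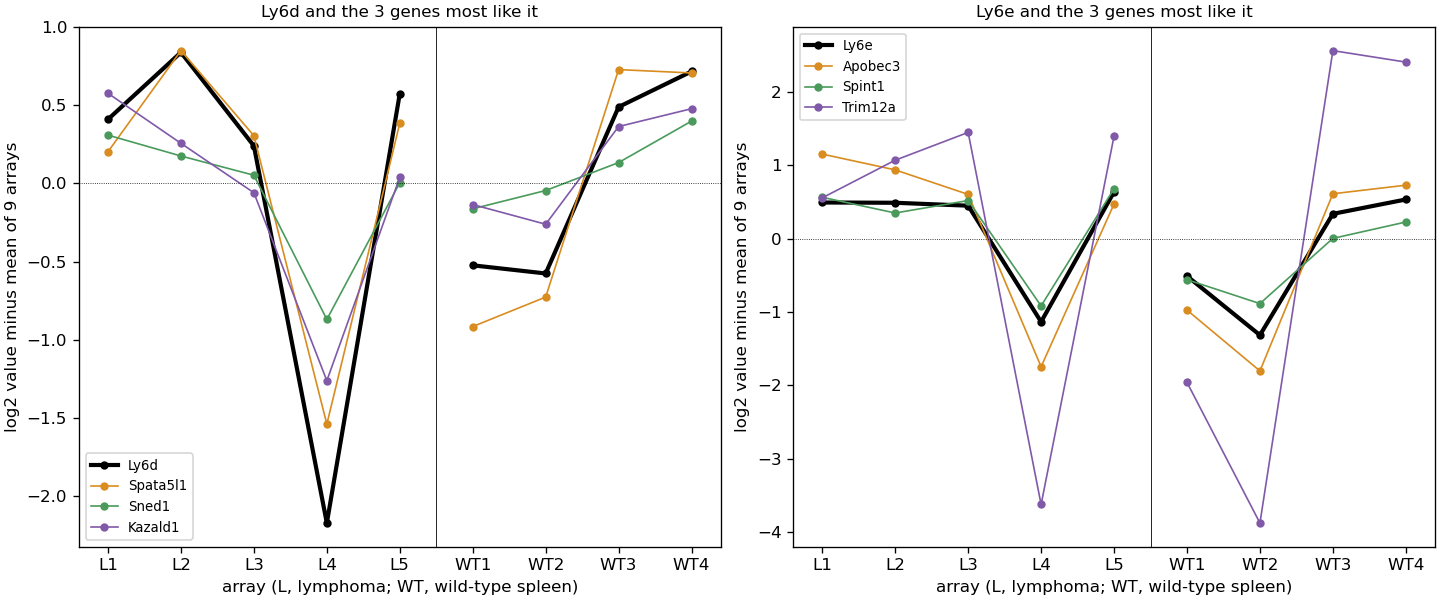
Log2 value minus the mean of the 9 arrays (vertical axes) on each array (horizontal axes; L, lymphoma; WT, wild-type spleen) for Ly6d (left panel) and Ly6e (right panel), in black, and the 3 genes with the highest Pearson correlation with each, in colour. Lines only join the values of a gene within a group, and replicates have no order. Lymphoma 4 is the lowest lymphoma for every gene shown, and wild-type spleens 1 and 2 are below wild-type spleens 3 and 4.

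Ly6k, the testis gene, gave a different picture. Its leading probe set (1452855_at) stood at 8.98, 5.83, 8.36, 6.67 and 6.94 in lymphomas 1 to 5, against 7.32, 7.39, 7.52 and 7.44 in wild-type spleens 1 to 4. Lymphomas 1 and 3 were above every wild-type spleen and lymphomas 2, 4 and 5 below every one. The lymphomas spanned an 8.88-fold range and the wild-type spleens a 1.15-fold range.

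The Ly6k means were 7.35 ± 1.29 in lymphoma and 7.42 ± 0.083 in wild-type (SD, n = 5 and n = 4). The difference was -0.062 (95% interval -1.31 to 1.19; limma adjusted p 0.977, exact permutation p 0.952, two-sided). The SD in lymphoma was 15.5 times that in wild-type, a ratio that 0.655% of all probe sets reached, where the median ratio was 1.69. With 4 wild-type arrays such a ratio is imprecise, and it was singled out after the values were seen and not tested. Limma assumes 1 spread for both groups. The unequal-variance test, which called 0 of all 45037 probe sets, gave the Ly6k difference an unadjusted p of 0.920.

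The second Ly6k probe set (1454071_at) did not show this spread. It read 5.05, 4.87, 4.84, 5.08 and 4.97 in lymphomas 1 to 5, against 4.90, 5.02, 4.97 and 5.09 in wild-type spleens 1 to 4. Its mean lay below the median of all probe-set means, where RMA compresses differences, and the difference was -0.032 (95% interval -0.21 to 0.14; limma adjusted p 0.897). Over the 9 arrays the Ly6k probe sets correlated at 0.12, so the spread rests on 1 probe set.

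The genes most like Ly6k were Slc7a2, a transporter of cationic amino acids, Enpep, a cell-surface aminopeptidase, and Atp8b4, a member of the lipid flippase family. Their Pearson correlations with the leading Ly6k probe set were 0.96, 0.96 and 0.95 over the 9 arrays (Spearman 0.95, 0.88 and 0.88). Without lymphomas 1 and 2, the arrays farthest from the median of Ly6k, they were 0.86, 0.82 and 0.78. Slc7a2 stood at 9.41, 5.49, 8.41, 6.96 and 6.72 in lymphomas 1 to 5, against 7.80, 7.55, 8.10 and 8.15 in wild-type spleens 1 to 4. Lymphomas 1 and 3 were thus its 2 highest arrays and lymphoma 2 its lowest. Several marker lists correlated with Ly6k too. Over the 9 arrays the mean level of a list correlated with Ly6k at 0.81 for B-cell precursors (8 of 9 genes positive), 0.69 for stem and progenitor cells (12 of 13) and 0.68 for endothelium (12 of 12). All 11 neutrophil and all 9 erythroid genes correlated positively with it too, with lower correlations of their mean levels (0.42 and 0.15). Relative to its mean over all arrays, the B-cell precursor list stood at 0.97 in lymphoma 1 and -0.52 in lymphoma 2. On all other arrays it lay between -0.14 and 0.012, with lymphoma 3 at -0.10. The list correlations were not computed without lymphomas 1 and 2, and no share of all genes is given beside the counts. The part of the listed cells in the Ly6k level was not tested.

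**Figure D3:**
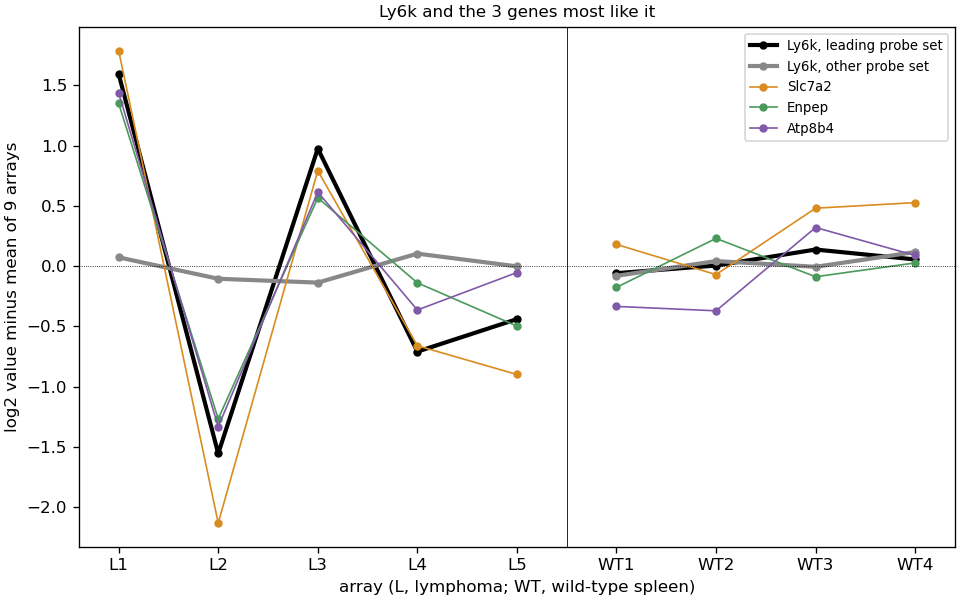
Log2 value minus the mean of the 9 arrays (vertical axis) on each array (horizontal axis; L, lymphoma; WT, wild-type spleen) for both Ly6k probe sets (black and grey) and the 3 genes most like the leading one (colour). Lines only join the values of a gene within a group. The leading Ly6k probe set is high in lymphomas 1 and 3 and low in lymphoma 2, whereas the other Ly6k probe set stays between 4.84 and 5.09.

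The probe set filed under both Ly6c1 and Ly6c2 (1421571_a_at) is outside the rule and is given as it stands. It read 12.59, 11.08, 12.93, 11.73 and 12.77 in lymphomas 1 to 5, against 11.29, 11.41, 11.76 and 11.75 in wild-type spleens 1 to 4. Lymphomas 1, 3 and 5 were above every wild-type spleen, lymphoma 4 was within their range and lymphoma 2 was below them. The means were 12.22 ± 0.79 in lymphoma and 11.55 ± 0.24 in wild-type (SD, n = 5 and n = 4), a difference of 0.67 (95% interval -0.13 to 1.46) that did not pass (limma adjusted p 0.442, exact permutation p 0.159, two-sided). It was 0.95 without lymphoma 2, 0.49 without lymphoma 3 and 0.24 with the Xist level as covariate (limma adjusted p 0.116, 0.543 and 0.765).

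The wider Ly6/uPAR family, which shares the fold of the Ly6 proteins, did not pass either. Of 36 relatives listed, 26 were measured. Limma called 0 higher and 0 lower, against 0.605% of the leading probe sets of all 18193 genes (0.346% higher and 0.258% lower). Without adjustment, 0 were higher and 2 lower with p under 0.05, against 6.79% and 8.09% of all genes. Their median difference was -0.014 against 0.0012 over all genes. Ly6g, whose product is the standard neutrophil marker, was among the 10 relatives not analysed here.

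The relatives with the largest differences were Cd177, a neutrophil surface protein, and Lypd6b, a modulator of nicotinic receptors. Cd177 read 12.02, 7.15, 5.78, 5.18 and 7.25 in lymphomas 1 to 5, against 5.35, 5.24, 5.21 and 5.59 in wild-type spleens 1 to 4. Lymphoma 1 stood far above the others, lymphoma 4 was below every wild-type spleen, and the difference of 2.13 ± 1.16 (SE) did not pass (limma adjusted p 0.455). Without lymphoma 1 it was 0.99, and with the erythroid level as covariate 0.79. The neutrophil marker list also had its highest mean level in lymphoma 1 (4.03 above its mean over all arrays), and its part in the Cd177 level was not tested.

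Lypd6b read 5.81, 5.47, 6.81, 7.18 and 5.83 in lymphomas 1 to 5, against 7.53, 7.66, 8.27 and 8.31 in wild-type spleens 1 to 4. The groups did not overlap, as on 7.33% of the leading probe sets of all genes, and the difference was -1.72 ± 0.35 (SE; limma adjusted p 0.0802). Among the alternatives run it passed only without lymphoma 4, at -1.96 (limma adjusted p 0.0397).

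**Figure D4:**
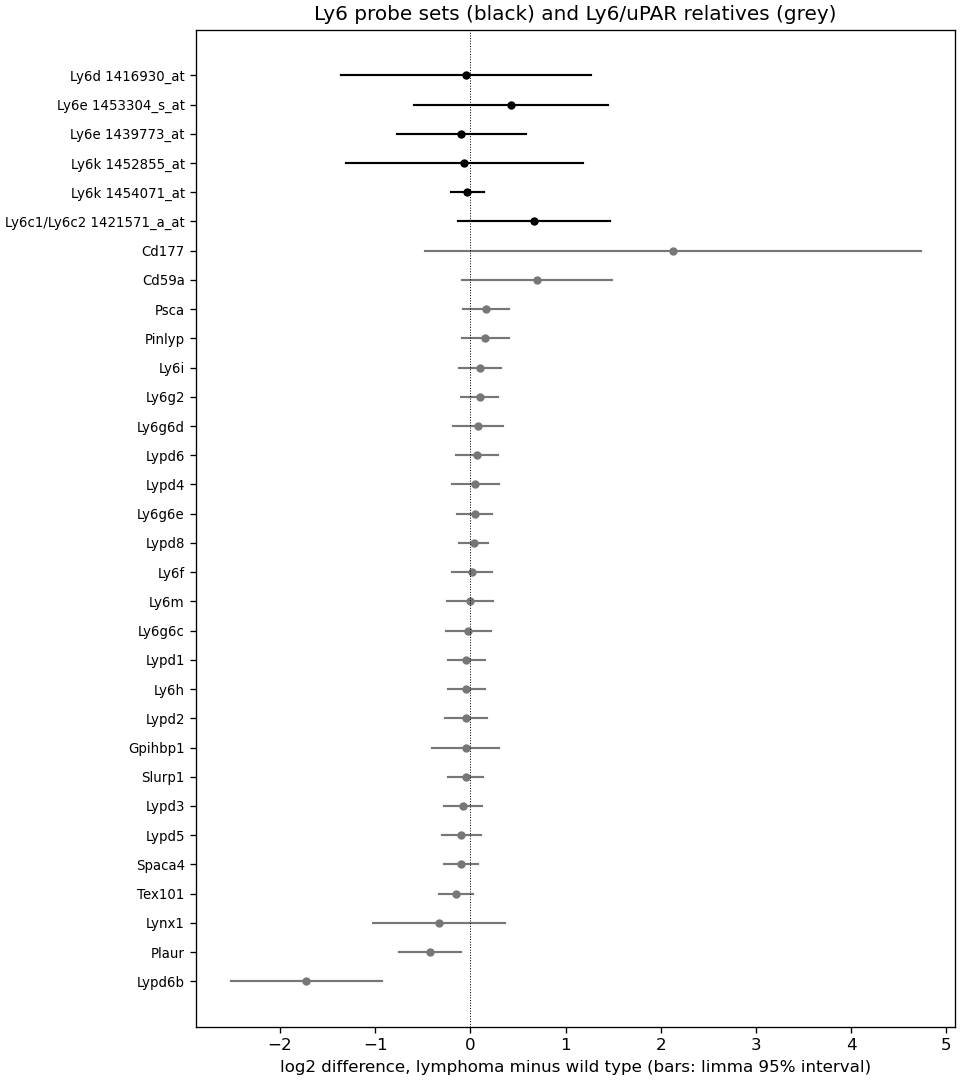
Log2 difference, lymphoma minus wild type (horizontal axis), of the 5 Ly6 probe sets and the probe set filed under both Ly6c1 and Ly6c2 (black, with probe set names) and of the leading probe sets of the 26 measured Ly6/uPAR relatives (grey, ordered by difference). Bars are limma's 95% intervals without adjustment. Every black interval spans 0, and those of Lypd6b and Plaur do not.

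Most neighbours of the Ly6 genes on chromosome 15 had small differences. From Psca to Gpihbp1, RefSeq (GRCm38.p6) lists 29 protein-coding genes, of which 17 had a leading probe set here, and limma called 0 of them, and 0 had an unadjusted p under 0.05. Their differences lay between -0.33 (Lynx1) and 0.43 (Ly6e). Of the 17, 4 (Ly6d, Ly6e, Ly6k and Lynx1) had an SD about the group means of at least 0.3. By a near measure, the SD over all 9 arrays, 4221 of all 18193 genes reached 0.3, so this count does not mark out the locus. The neighbours Ly6i and Ly6m had SDs of 0.145 and 0.162, but their mean levels (6.14 and 5.82) lay below every array median, where RMA compresses differences.

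Genes that make, attach or remodel the GPI anchor, which holds Ly6 proteins in the membrane, did not pass. Of 26 measured genes limma called 0, against 0.605% of all genes. Without adjustment 2 were higher and 2 were lower with p under 0.05, close to the 6.79% and 8.09% of all genes, and their median difference was -0.030 against 0.0012. Pigq, of the enzyme that starts the anchor, stood at 0.57 (limma adjusted p 0.512; 0.32 without lymphoma 1) and Pgap1, which remodels the anchor after its attachment, at -0.53 (0.316).

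Interferon-stimulated genes were measured because several Ly6 genes answer to interferon. Of 27 measured genes limma called 0, against 0.605% of all genes. Without adjustment 5 were higher and 4 were lower with p under 0.05, both larger shares than the 6.79% and 8.09% of all genes, and the median difference was -0.0031 against 0.0012. The GTPase gene Iigp1 had a difference of 1.11 ± 0.24 (SE; limma adjusted p 0.0875), and without lymphoma 4 it passed at 1.33 (0.0105). The antiviral gene Rsad2 stood at 13.54, 12.48, 11.67, 7.82 and 9.52 in lymphomas 1 to 5, against 9.90, 9.00, 8.87 and 8.92 in wild-type spleens 1 to 4. Lymphoma 4 was its lowest array, as for Ly6d (difference 1.83 ± 1.02, SE; limma adjusted p 0.462). The Rsad2 difference was smaller without its highest arrays: it was 1.20 without lymphoma 1, 0.50 without lymphomas 1 and 2 and 0.30 with the erythroid level as covariate.

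The mean level of the interferon list relative to its mean over all arrays was 0.19, 0.29, 0.12, -0.35 and 0.12 in lymphomas 1 to 5, against -0.15, -0.077, -0.052 and -0.095 in wild-type spleens 1 to 4. It was lowest in lymphoma 4, and 22 of its 27 genes correlated positively with Ly6d and 19 with Ly6e. The endothelial list stood at 0.72, -0.0064, 0.31, -0.56 and -0.020 in lymphomas 1 to 5, against -0.34, -0.34, 0.073 and 0.17 in wild-type spleens 1 to 4. Lymphoma 4 was the lowest array of the endothelial list too, and its wild-type spleens 1 and 2 lay below wild-type spleens 3 and 4. The interferon list had no such split, with wild-type spleen 2 (-0.077) above wild-type spleen 4 (-0.095). Of the 12 endothelial genes, 11 correlated positively with Ly6d and 11 with Ly6e. The interferon and endothelial mean levels correlated with Ly6d at 0.80 and 0.71 and with Ly6e at 0.71 and 0.77 over the 9 arrays.

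Other lists correlated with Ly6d and Ly6e as well. All 11 neutrophil and all 9 erythroid genes correlated positively with both Ly6d and Ly6e, as did all 12 plasma cell genes with Ly6d (11 with Ly6e). So did 12 of 13 monocyte and macrophage genes with Ly6e (4 with Ly6d), although the mean level of that list correlated only at 0.32 with Ly6e and 0.0094 with Ly6d. The mean levels of the plasma cell, erythroid and neutrophil lists correlated with Ly6d at 0.58, 0.49 and 0.38, and with Ly6e at 0.65, 0.48 and 0.51. For the stem and progenitor list the values were 0.51 with Ly6d (10 of 13 genes positive) and 0.41 with Ly6e (7 of 13). Mature B-cell and T-cell genes went the other way. Only 1 of 11 mature B-cell genes correlated positively with Ly6d and 1 with Ly6e (mean levels -0.21 and -0.40). For T cells it was 1 of 10 and 0 of 10 (-0.23 and -0.27). The mean level of the B-cell precursor list correlated at -0.029 with Ly6d and 0.049 with Ly6e (6 of 9 genes positive with each). Lymphoma 4, the lowest array for Ly6d, also had the lowest mean levels of the interferon, endothelial, plasma cell, erythroid, and stem and progenitor lists. The list correlations were not computed without lymphoma 4. No share of all genes is given beside the counts of positive genes, which are descriptions only. The part of interferon response and of the listed cells in the Ly6d and Ly6e levels was not tested.

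Of the stem and progenitor list, 13 of 14 genes were measured. Limma called 0 higher and 1 lower, against 0.346% and 0.258% of all genes. The one called was Procr, the endothelial protein C receptor of stem cells and vessels, at 9.14, 9.06, 9.34, 9.03 and 9.14 in lymphomas 1 to 5, against 9.67, 9.81, 9.65 and 9.61 in wild-type spleens 1 to 4. The groups did not overlap (difference -0.55 ± 0.083, SE; limma adjusted p 0.0316). Its call was lost without lymphoma 4 (limma adjusted p 0.0510) or 5 (0.0776) and without any 1 of the 4 wild-type spleens (0.0860 to 0.137), while the difference in these fits stayed between -0.50 and -0.57.

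Malt1, the gene of the transgene, had 3 probe sets, all lower in lymphoma and none called. Its leading probe set differed by -0.59 (95% interval -0.94 to -0.24; limma adjusted p 0.141). No source used here says whether they read the transgene's transcript, and nothing about the transgene is drawn from them.

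The labelled tissue was checked against B-cell genes, and Ms4a1 and Cd79b averaged 13.62 and 13.11 in lymphoma and 13.83 and 13.46 in wild-type. All 11 mature B-cell genes measured had lower means in lymphoma (median difference -0.51), with 0 called, 4 lower at an unadjusted p under 0.05 and 3 whose groups did not overlap, against 8.09% and 7.33% of all genes. The widest gaps were those of Fcer2a (-1.77; limma adjusted p 0.234) and Cr2 (-1.25; 0.124). Of the other marker lists, limma called 5 of 13 monocyte and macrophage genes and 2 of 12 cytotoxic T and NK genes, all higher in lymphoma, against 0.346% of all genes, and 0 genes of the plasma cell, neutrophil, plasmacytoid dendritic cell, T cell, B-cell precursor, endothelial and erythroid lists. Lymphoma 4 had the lowest mean level of any array for the plasma cell (-0.59), stem and progenitor (-0.47), endothelial (-0.56) and erythroid (-1.86) lists, relative to their means over all arrays, and lymphoma 1 the highest for the B-cell precursor list (0.97). The part of these cells in the Ly6 levels was not tested.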

How the data were processed

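The deposited table holds log2 values that the authors made with RMA, per the submitters' processing notes; no source used here gives its version or settings. Array medians lay between 6.88 and 6.97, and values were used as deposited. Of 45101 probe sets, 64 controls were left out. The platform annotation gave 1 gene symbol for 34958 probe sets, several for 932 and none for 9211; only the first kind was named.

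The groups were tested by limma 3.58.1 under R 4.3.3 (lmFit, eBayes; no covariate or filter), with Benjamini-Hochberg adjustment over all probe sets, and with an exact permutation over 126 splits for single values (smallest p 0.00794). The fit was checked on simulated data with independent normal values and the same spread in both groups. That check does not cover the unequal spread of these groups or genes that vary together. All differences are lymphoma minus wild-type. For each gene the probe set with the highest mean leads. Named were all members, the 3 genes most like each member, in each list described gene by gene up to 4 called genes (if none, the 2 that differed most), and Malt1; Plaur, Lynx1 and the chromosome 15 neighbours were named after their values were seen. The members and lists were chosen with earlier results of these data known. Marker lists are given as counts and mean levels. Tried as alternatives were dropping dim probe sets, 2 other normalizations, other variance priors, weights per array, unequal variances, a replicate block, covariates for Xist and erythroid levels, other choices of probe sets, and leaving out arrays. Figures used matplotlib 3.10.9 (Python 3.11.15).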

Additional observations from a re-analysis of the deposited data

Results flagged for a closer look

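Of 50 groups of arrays checked for the values named, 9 had an array that stood apart from the rest of its group by its gap relative to the group's range. Chance flags about 1 in 20 groups, and the groups share arrays. Lymphoma 4 was the low array in 7 of the 9, among the lymphomas: for Ly6d (8.2693, the others 10.69 to 11.28), Ly6e on its leading probe set (11.5228, the others 13.11 to 13.29), Spata5l1 (5.1075), Sned1 (7.0363), Apobec3 (8.7226), Spint1 (6.1044) and Trim12a (4.7118). The last 5 genes were picked for their likeness to Ly6d or Ly6e and so repeat the pattern. Among the wild-type spleens, Pgap1 was low in replicate 4 (9.7184, the others 10.09 to 10.14) and Rsad2 high in replicate 1 (9.8987, the others 8.87 to 9.00).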

How the results depend on the processing

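No setting called a Ly6 probe set: in 106 values of the 5 probe sets over up to 13 alternatives and 9 left-out arrays, the lowest limma adjusted p was 0.344. Near 0, signs turned in 14 of these. Ly6d turned to 0.029 with array weights, was -0.58 with the erythroid level, -0.48 without lymphomas 1 and 2 and -0.33 with Xist as covariate, and lay between -0.26 and 0.49 with 1 array left out. Ly6e on 1439773_at turned to 0.082 with array weights and lay between -0.28 and 0.097 with 1 array left out; its leading probe set stayed positive, between 0.066 and 0.76. Ly6k turned to 0.042 with the replicate number as a block, and lay between -0.47 and 0.32 with 1 array left out; its second probe set turned to 0.0022 with Xist as covariate and lay between -0.064 and 0.0013 with 1 array left out. Pigq turned to -0.0013 without lymphomas 1 and 2.

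The number of called probe sets depended on the setting: 219 became 821 with array weights, 935 without lymphomas 1 and 2, 111 with the Xist level, 130 with 1 probe set per gene and 5 with the replicate block. It was 0 with the unequal-variance test (5463 at an unadjusted p under 0.05). With 1 array left out it lay between 0 (without wild-type spleen 2 or 3, with 4191 and 4505 at an unadjusted p under 0.05) and 530 (without lymphoma 2). The labels state no pairing by replicate number. Deviations of same-numbered arrays correlated at 0.099, -0.19, 0.15 and -0.038 over probe sets. These values cannot decide whether such samples were handled together, because the lymphomas also differ among themselves. Procr also lost its call with the intensity trend (limma adjusted p 0.0544), the erythroid level (0.0582), the unequal-variance test (0.130) and the replicate block (0.211), although its difference lay between -0.50 and -0.61 in every setting, and Iigp1 passed with array weights (0.0327). No detection calls were used here, so which dim probe sets were above background is not known.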
